A study of Zea mays with 15 samples.

Results

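The sites described here are the 1228 places in the maize genome where all 7 clade A AUXIN RESPONSE FACTORS (ARFs) of the series had a DNA affinity purification sequencing (DAP-seq) peak and none of the 7 clade B ARFs did. The 14 deposited peak lists were joined, overlapping peaks (1 bp or more) were merged into sites, and sites with a peak of every clade A list and of no clade B list were kept. This gave 1228 of 124379 merged sites, or 0.987% (95% Wilson interval 0.934 to 1.04). The sites were thus chosen by the presence or absence of called peaks, which is not a result.

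In DAP-seq a purified, tagged transcription factor is mixed with sheared genomic DNA freed of chromatin, and the fragments it retains are sequenced. The clade A proteins were ARF4 (GRMZM2G034840), ARF16 (GRMZM2G028980), ARF18 (GRMZM2G035405), ARF27 (GRMZM2G160005), ARF29 (GRMZM2G086949), ARF34 (GRMZM2G081158) and ARF35 (GRMZM2G317900), and the clade B proteins were ARF10, ARF25, ARF7, ARF14, ARF36, ARF13 and ARF39. Each was a glutathione S-transferase (GST) fusion made in E. coli, each had 1 library on DNA from 1 to 3 cm ears of the inbred B73, and a GST-HALO protein made in wheat germ extract was the negative control of the series. The ARF34 library had been reduced to 15 M reads and the ARF27 library to 20 M. GEO's labels do not name clades, which are those of the study's phylogeny. Because there was 1 library per ARF, differences between ARFs are differences between lists with no replicate check. All intervals cover counting error over sites only, since PCR copies were not marked with molecular identifiers and neighbouring sites are not replicates.

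ARFs carry the transcriptional response to the plant hormone auxin. They bind DNA through a B3 domain that reads short TGTC-containing elements, and they can bind as dimers to paired elements. Members of clade A mostly switch target genes on, and those of clade B mostly keep them off. Auxin acts on clade A ARFs through the degradation of Aux/IAA proteins, which hold them inactive, whereas clade B members are thought to depend less on this route. The sequences under the sites were not analysed here, because no genome of the files' build, B73 RefGen version 3, was at hand.

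The 1228 sites made up 36.9% (35.2 to 38.5) of the 3332 sites that held all 7 clade A ARFs. Of the rest, 1562 also had 1 to 6 clade B ARFs and 542 had all 14. The paper left regions with a peak in all samples and in the control out of some analyses. No such step was made here. Regions of this kind that remain in the lists would be among the 542 sites and not among the 1228, which limits every comparison with sites of all 14. The 1228 sites were 1.97% of the 62370 sites bound by clade A ARFs alone, most of which had a peak of few of the 7. How much of a list fell at these sites differed widely. They held 17.1% of the 7520 ARF18 peaks, 13.97% of the 9198 ARF35 peaks and 9.44% of the 14157 ARF29 peaks. The share was 4.74% for ARF4, 4.62% for ARF27, 3.68% for ARF16 and 2.08% of the 74603 peaks for ARF34. The order of the shares was the reverse of the order of list lengths. This follows largely from the rule, which requires a peak of every clade A list at every site.

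Signal at the sites is the read depth that the peak caller assigned to the strongest peak of a list. It was not scaled between libraries, so it was compared as a rank from 0 (weakest) to 100 (strongest) among all peaks of the same list. ARF34 had a signal of 20.3 to 996 reads at the 1228 sites, with a median of 168.2, and the median rank was 92.7. ARF16 had 29.1 to 1262.7 reads, median 185.3, at a median rank of 90.8, and ARF27 had 20.5 to 651.7 reads, median 108.65, at a rank of 85.0. These 3 lists therefore placed the sites among their stronger peaks. The remaining 4 lists placed them closer to the middle.

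ARF4 had a median of 62 reads (21 to 391) at rank 74.2, and ARF29 had a median of 71.65 reads (23 to 558.5) at rank 73.1. ARF35 had a median of 73 reads (22.7 to 517) at rank 64.1, and ARF18 had 65.45 reads (22 to 447.4) at rank 64.0. A rank above 90 in all 7 lists was found at 28 sites (2.28%), and 444 sites (36.2%) were above rank 50 in every list. No site was below rank 50 in all 7 (0 of 1228, which allows up to 0.312%). The order of the lists was different when list lengths were made equal. When every list was cut to its 7520 strongest peaks and the sites were chosen again, which gave 850 sites of which 340 overlapped the 1228, the median ranks ran from 83.3 in ARF16 and 82.7 in ARF18, through 80.4 in ARF27, 80.1 in ARF35, 78.2 in ARF29 and 77.0 in ARF34, to 71.5 in ARF4.

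**Figure D1:**
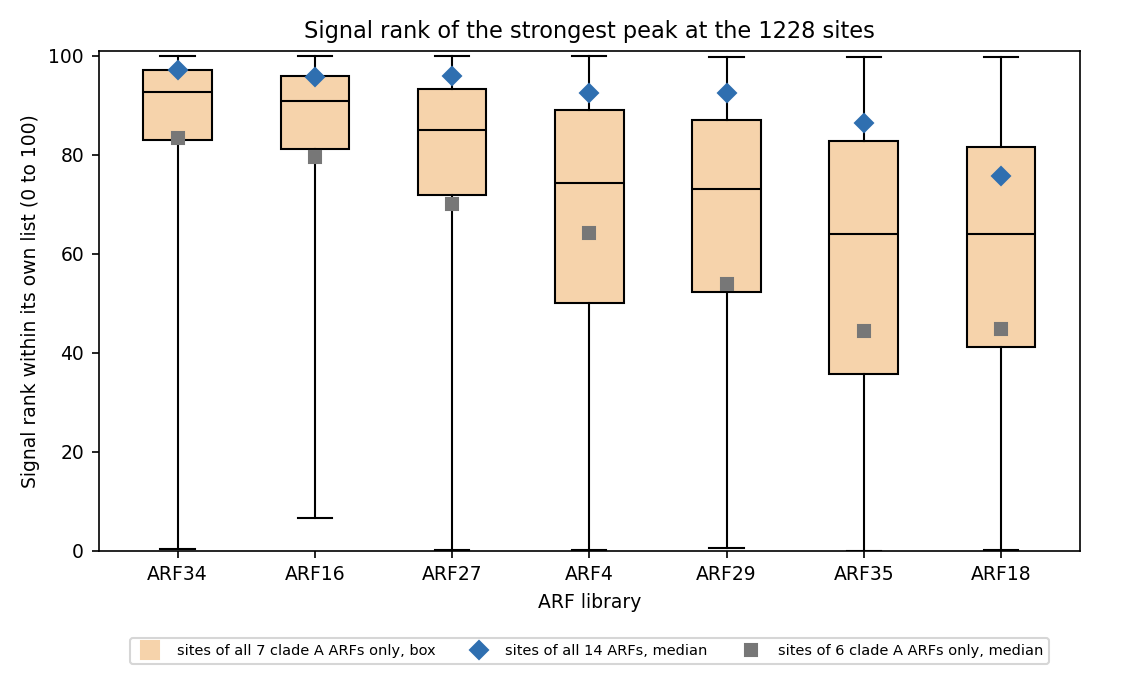
The vertical axis is the rank of a site's strongest peak within its own list, from 0 to 100, and each position on the horizontal axis is 1 ARF library. Boxes show the quartiles over the 1228 sites with whiskers to the lowest and highest value; diamonds and squares are medians at sites of all 14 ARFs and of 6 clade A ARFs only, which lie above and below the box median in every list.

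Within a site the 7 lists often disagreed in rank. The median difference between the highest and the lowest list was 53.6 rank units, with a range of 2.15 to 95.7. The lowest rank belonged to ARF35 at 361 sites, to ARF18 at 348, to ARF4 at 278 and to ARF29 at 185, together 1172 sites (95.4%). The highest rank belonged to ARF34 at 539 sites, to ARF16 at 272 and to ARF27 at 159. With lists of equal length the lowest rank was shared out more evenly over 850 sites, with ARF4 lowest at 255, ARF34 at 161 and ARF18 at 60.

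Across the 1228 sites the signals of ARF16 and ARF34 went together most closely, with a Spearman rho of 0.80. ARF27 and ARF35 followed at 0.62 and ARF16 and ARF18 at 0.58. Next came ARF16 with ARF27 and ARF4 with ARF29, both at 0.56, and ARF34 with ARF27 at 0.55. The lowest value of the 21 pairs was 0.19, between ARF29 and ARF34, and the median was 0.44. ARF29 and ARF34 thus ranked these sites in largely different orders. At the 542 sites of all 14 ARFs the same 21 pairs had a median rho of 0.62. These values are descriptions across sites of single libraries, which share their DNA source and mapping.

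The strongest site lay on chromosome 10 at 2781250 to 2781468. It had 300 reads in ARF4, 364 in ARF29, 720 in ARF16, 286 in ARF18, 558 in ARF34, 500 in ARF27 and 236.9 in ARF35, and its mean rank over the 7 lists was 99.1. Every list placed it above rank 97. The second, on chromosome 7 at 159271748 to 159271963, had 191 reads in ARF4, 505 in ARF29, 949 in ARF16, 284 in ARF18, 579 in ARF34, 264 in ARF27 and 255 in ARF35, with a mean rank of 98.9. The third was on chromosome 3 at 35494827 to 35495055, with a mean rank of 98.6, and there ARF29 had 558.5 reads, its highest signal at any of the 1228 sites. All coordinates are those of B73 RefGen version 3, counted from 1.

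The rest of the 10 strongest sites had mean ranks of 97.5 to 98.6 and lay on chromosomes 9, 6, 4, 4, 5, 2 and 1. On chromosome 4, the site at 147253301 to 147253599 had the highest ARF16 signal of the set, 1262.7 reads, whereas ARF35 had 167. The site on chromosome 6 at 89290307 to 89290533 stood out among the 10 in its neighbours, with a clade B summit only 391 bp from its centre. The nearest clade B summit of the other 9 was 2013 to 14552.5 bp away. The weakest site of the set, on chromosome 6 at 135262556 to 135262761, had 20.3 reads in ARF34, 31.9 in ARF4, 33.6 in ARF29, 37 in ARF16, 42 in ARF18, 43.3 in ARF35 and 54.2 in ARF27. Its mean rank was 21.2, and all 7 summits nevertheless stood in the most frequent arrangement described further on.

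The sites grew stronger in every list with the number of clade A ARFs present. The median ARF16 rank was 90.8 at the 1228 sites, 79.6 at sites of 6 clade A ARFs only, 66.9 at sites of 5 and 58.6 at sites of 4. For ARF18 the medians were 64.0, 44.8, 37.3 and 27.3. Clade A signal was higher again where clade B ARFs were also present. The median of the mean clade A rank was 73.9 (72.95 to 74.9) at the 1228 sites, against 82.9 (81.9 to 83.9) at sites with 1 to 6 clade B ARFs and 87.8 (86.2 to 89.3) at sites of all 14. Each of the 7 lists had its lowest median of these 3 sets at the 1228 sites. With lists of equal length the medians were 74.2 at the sites chosen again and 86.7 at sites of all 14. The rule selects on the same lists, so these ranks are given as a description with no test.

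The edge of the rule lay in ARF18, ARF4 and ARF35 most often. The lowest −log10 q among the 7 lists of a site had a median of 7.39, against the authors' limit of 5, and was under 6 at 333 sites (27.1%). It was 10 or more at 304 sites (24.8%). The list that gave it was ARF18 at 376 sites, ARF4, with its 28671 peaks, at 332, ARF35 at 310 and ARF29 at 177. Just outside the rule were 1558 sites with 6 of the 7 clade A ARFs and no clade B ARF. The missing ARF was ARF18 at 657 of them (42.2%, 39.7 to 44.6) and ARF35 at 506 (32.5%), the shortest lists of the clade. ARF29 was missing at 195, ARF4 at 168, ARF27 at 22, ARF34 at 6 and ARF16 at 4.

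The other 6 lists had a median mean rank of 76.4 at the 1228 sites, against 60.8 at sites that lacked ARF18 alone. The corresponding values for ARF35 were 76.2 at the 1228 sites and 63.2 at the sites without it. With lists of equal length the missing ARF was most often ARF4, at 273 of 766 sites (35.6%), followed by ARF34 at 138 and ARF29 at 97, whereas ARF18 was missing at 95 (12.4%).

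On the other side of the rule were 353 sites with all 7 clade A ARFs and exactly 1 clade B ARF. That ARF was ARF10 at 230 of them (65.2%, 60.05 to 69.9), ARF25 at 75, ARF7 at 18, ARF14 at 14, ARF39 at 10, ARF36 at 6 and ARF13 at 0 (up to 1.08%). The single clade B peaks were weak ones. ARF10 had a median rank of 31.1 in its own list and a median −log10 q of 6.24 there, and 188 of the 230 were below rank 50. Of the 75 ARF25 peaks, 69 were below rank 50. With lists of equal length ARF39 came first, at 74 of 168 sites (44.05%), and ARF10 second with 61 (36.3%). At a −log10 q of at least 10, ARF10 made up 70 of 153 (45.8%) and ARF25 made up 60.

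**Figure D2:**
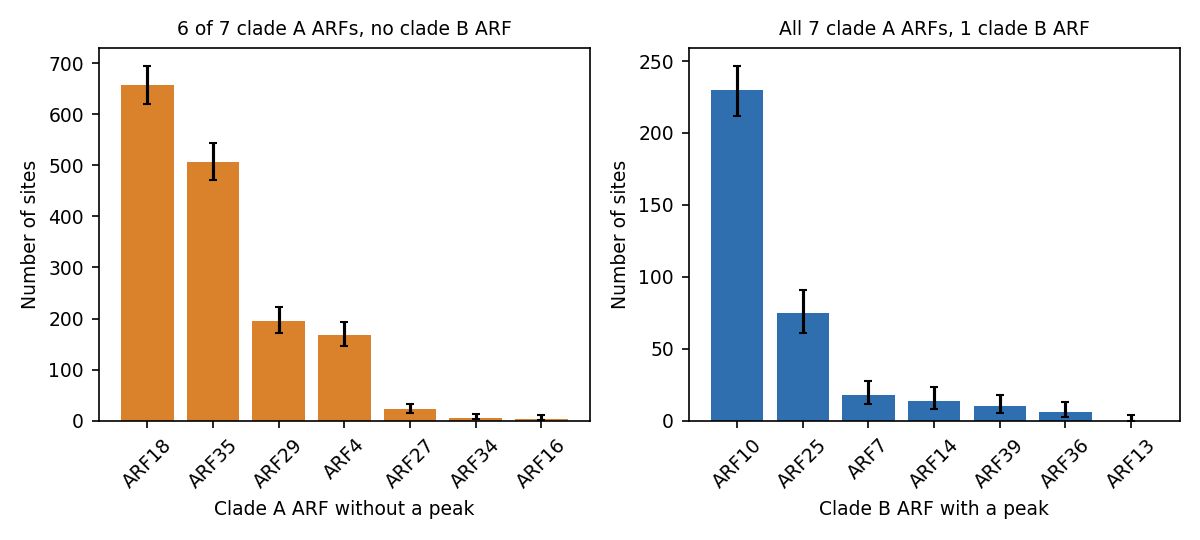
Both panels count merged sites just outside the rule, on a vertical axis that starts at 0, with 95% Wilson intervals scaled to counts. The left panel divides the 1558 sites of 6 clade A ARFs by the ARF without a peak, with ARF18 at 657 and ARF35 at 506; the right panel divides the 353 sites with 1 clade B ARF by that ARF, with ARF10 at 230.

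The deposited peaks are all 201 bp wide, so the width of a site shows how far its summits spread. The 1228 sites had a median width of 237 bp (206 to 572), against 258 bp at sites of all 14 ARFs, which join more peaks, and 217 bp at the 2296 sites of all 7 clade B ARFs and no clade A ARF. Exactly 1 peak of each list was present at 696 sites (56.7%, 53.9 to 59.4). ARF16 had several peaks at 312 sites (25.4%) and ARF34 at 307, against 54 (4.40%) for ARF35 and 58 (4.72%) for ARF18. The share with several ARF16 peaks was 25.4% at the 1228 sites, against 36.9% at sites of all 14, a difference of -11.5 points (-16.3 to -6.81). Each of the other 6 lists also had several peaks less often at the 1228 sites than at sites of all 14, with differences of -14.7 to -4.32 points and no interval that reached 0. Against sites of 6 clade A ARFs only, the direction was the opposite in all 7 lists. Several ARF16 peaks stood at 25.4% of the 1228 sites and 17.2% of sites of 6, a difference of 8.16 points (5.10 to 11.2), and the other 6 lists differed by 3.16 to 5.61 points with intervals above 0. The rule and the merging used these same called peaks, and a site that joins more peaks can take in more lists. These shares are thus a description with no test.

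The sites with most peaks lay on chromosome 10 at 4476559 to 4476962, with 18 peaks, on chromosome 2 at 194483170 to 194483741, with 16, and on chromosome 1 at 203753243 to 203753704, also with 16. The first had 3 peaks each of ARF18, ARF34, ARF27 and ARF35 and 2 each of ARF4, ARF29 and ARF16. Its mean rank was 91.2, and another of the 1228 sites lay 1036.5 bp away. At the second the peaks were unequally shared, with 4 of ARF4 but 1 each of ARF18 and ARF35.

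At base resolution the 7 summits had a most frequent arrangement. When the exact distance between the strongest summits of a pair of lists was counted over the 1228 sites, 1 distance dominated in each of the 21 pairs. It held 67.3% (64.6 to 69.8) of sites for ARF16 and ARF34, at 1 bp, and 45.9% (43.2 to 48.7) for ARF16 and ARF35, at 3 bp, the lowest share. The median share over the pairs was 58.0%, and the next most frequent distance never held more than 37 sites. These 21 most frequent distances all fitted 1 arrangement along the DNA. Taking ARF16 as 0, ARF34 lay at -1 bp, ARF4 and ARF18 at 0, ARF27 at 1, ARF35 at 3 and ARF29 at 4, a span of 5 bp. Lists whose summits stood at these positions at a site, read in either direction along the chromosome, are called in register below. Any peak of a list at the site could count, and the placement and direction that fitted most lists were taken. Lists with several peaks at a site thus had more chances to fit.

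All 7 lists were in register at 348 of the 1228 sites (28.3%, 25.9 to 30.9), 179 in 1 direction of the reference strand and 169 in the other. At least 5 lists were in register at 841 sites (68.5%). ARF29 was in register most often, at 80.3% of sites (78.0 to 82.4), and ARF35 least often, at 68.6% (65.9 to 71.1). At the 256 sites with exactly 6 lists in register, the list out was ARF4 at 56, ARF35 at 48, ARF34 at 45, ARF16 at 35, ARF27 at 27, ARF18 at 26 and ARF29 at 19. Sites with exactly 1 peak per list had all 7 in register more often, at 34.1%.

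The register was not particular to the 1228 sites. All 7 lists were in register at 28.3% of them, against 28.9% of sites with 1 to 6 clade B ARFs, a difference of -0.53 points (-3.89 to 2.86). At sites of all 14 ARFs the share was 29.5%, a difference of -1.18 points (-5.85 to 3.32). The intervals allow differences of a few points either way. Sites of all 14 more often had several peaks of a list, and thus more chances to fit, so these shares do not show that the sets are equal. For single pairs only the strongest peak of a list was used. There the share at the usual distance differed between the 1228 sites and sites of all 14 by -0.14 to 8.50 points. The interval reached 0 in 14 of the 21 pairs and lay above 0 in 7. In the pair with the highest difference, ARF16 and ARF27 stood at their usual 1 bp at 51.3% of the 1228 sites, against 42.8% of sites of all 14, a difference of 8.50 points (3.45 to 13.5). The peak caller refines each position with enriched k-mers found in the same library, so the base at which a summit is placed depends on the call. What part this has in the most frequent arrangement was not tested.

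Signal differed between sites in and out of register for some lists. The ranks are those of a list's strongest peak, which need not be its peak in register. At the 348 sites with all 7 in register, ARF35 had a median rank of 70.7 (67.5 to 76.4), against 55.5 (51.4 to 61.2) at the 387 sites with at most 4 lists in register. ARF29 had 77.5 (74.7 to 80.8) at the sites in register and 68.1 (64.3 to 71.1) at those with at most 4. For ARF27 the values were 87.5 (86.0 to 89.1) and 83.5 (80.7 to 85.3). ARF18, at 65.2 against 59.7, and ARF4, at 75.8 against 72.3, were also higher in register, with overlapping intervals. ARF34 and ARF16 had no such gain. The median rank of ARF34 was 91.0 (89.3 to 92.4) at the sites in register and 93.4 (91.9 to 94.2) at those with at most 4, and that of ARF16 was 89.6 (87.6 to 90.8) against 91.0 (89.7 to 92.0).

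Where a summit of a list was out of register, its distance was not evenly spread. At the 1058 sites with at least 4 lists in register there were 2426 peaks out of register, weaker peaks of a list included, and 1736 of them lay within 60 bp. Measured in the same direction as the register, the most frequent shifts were -10 bp (41 peaks), 10 bp (40), 11 bp (38) and -11 bp (34), against a median of 13 peaks per base over 5 to 60 bp. Counted on either side, 235 peaks lay 9 to 12 bp away, 86 lay 13 to 14 bp away, 97 lay 15 to 18 bp away, 194 lay 20 to 23 bp away, 90 lay 25 to 28 bp away and 173 lay 30 to 33 bp away. Further out, 96 peaks lay 36 to 39 bp away and 122 lay 41 to 44 bp away. Windows of 4 bp near 10, 21 and 31 bp thus held more peaks than those between them, but the counts did not drop at once beyond 12 bp. On the negative side they stayed at 25 to 30 peaks per base between -12 and -15 bp. The shifts of 10 or 11 bp on either side, 153 peaks, came from 99 sites. The windows were placed after the counts had been seen, and that of 13 to 14 bp is narrower than the others. They also leave out bases between them. Peaks on the negative and the positive side were 16 and 10 at 19 bp, 19 and 13 at 24 bp and 8 and 20 at 29 bp. Further out they were 25 and 15 at 34 bp, 15 and 20 at 35 bp and 11 and 5 at 40 bp.

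A second pattern appeared when each shifted summit was read as the register turned round. At -14 bp on this scale 67 peaks were found, against a median of 12 per base. They came from 44 sites and from all 7 lists. ARF35 gave 17 peaks, ARF29 gave 13, ARF34 and ARF27 gave 10 each, ARF16 gave 9 and ARF4 and ARF18 gave 4 each. ARF4, ARF16 and ARF18 lie at 0 in the register, so their shifts are the same read in either direction. Their peaks are thus also among the 30 at -14 bp in the same direction. Only the peaks of ARF35, ARF29, ARF34 and ARF27 have different shifts in the readings, and they too are counted in both. In the same direction, those of ARF35 are among the 27 peaks at -20 bp and those of ARF29 among the 32 at -22 bp. Those of ARF34 are among the 30 at -12 bp and those of ARF27 among the 17 at -16 bp. Peaks of ARF35, ARF29 and ARF34 thus also lie in the windows of 20 to 23 and 9 to 12 bp, so the patterns share peaks. Beside -14 bp in the reversed direction, 38 peaks lay at -15 bp and 37 at -13 bp. The sequence between such summits was not analysed here.

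**Figure D3:**
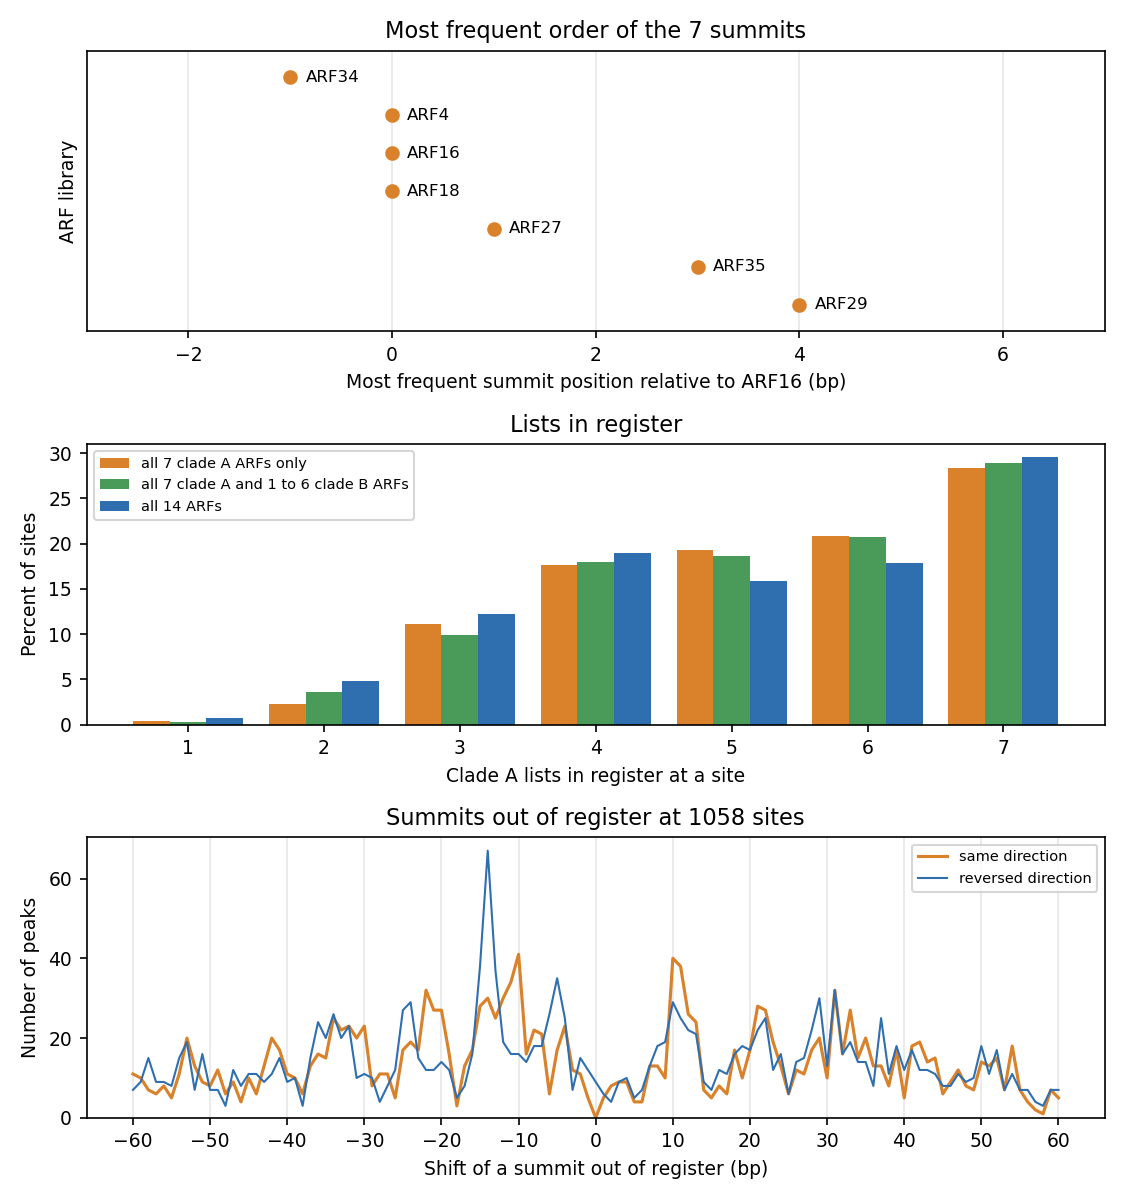
The top panel gives the most frequent summit position of each list relative to ARF16 in bp, from -1 for ARF34 to 4 for ARF29, and the middle panel gives the percent of sites by the number of clade A lists in register, with 28.3% at 7 lists for the 1228 sites against 28.9% and 29.5% for the sites that also hold clade B ARFs. The bottom panel counts peaks out of register by their shift in bp at 1058 sites. Maxima lay near 10 bp on either side in the same direction, with 67 peaks at -14 bp in the reversed direction. Every peak is counted in both directions, and peaks of ARF4, ARF16 and ARF18, which lie at 0, have the same shift in both.

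Position along the chromosome was not used to choose the sites. Of the 1228 sites, 390 (31.8%, 29.2 to 34.4) had their centre in the outer 20% of a chromosome, which is 10% at each end, against a background of 23.9% over all merged sites. The difference from all other merged sites was 7.94 points (5.39 to 10.6). Sites of all 7 clade B ARFs and no clade A ARF lay there less often, at 17.5%, and the difference of the 1228 sites from these was 14.3 points (11.3 to 17.3). It was 14.3 to 18.8 points in each of the 4 ways of choosing the sites that were compared for it. In maize the chromosome ends are rich in genes and the middle parts in transposons.

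The shift was not particular to the 1228 sites. The share in the outer 20% was 31.8% at these, 30.9% at sites of 6 clade A ARFs only, 28.9% at sites of 4 to 6, 24.4% at sites of 2 to 3 and 23.4% at sites of 1. It was 33.4% where 1 to 6 clade B ARFs were also present and 36.3% at sites of all 14. The difference from sites of 6 was 0.82 points (-2.63 to 4.30), and that from sites of all 14 was -4.59 points (-9.44 to 0.16), so neither interval excluded 0. Among the 1228 sites no steady trend of this share with signal was seen, in groups too small to exclude one. In 4 groups of 307 sites by mean rank, the share was 31.3% in the weakest, 34.2% in the next, 28.01% in the one after and 33.6% in the strongest, with overlapping intervals.

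With each chromosome divided into 10 equal stretches, 14.9% (13.02 to 17.003) of the 1228 sites lay in the first, 16.9% (14.9 to 19.1) in the last and 4.89% (3.81 to 6.24) in the fourth. Sites of all 7 clade B ARFs held 8.67% in the first stretch, 8.80% in the last and 9.45% in the fourth, and were thus spread almost evenly. The outer share by chromosome ran from 37.7% (30.03 to 45.997) of 138 sites on chromosome 5 to 22.99% (15.4 to 32.9) of 87 sites on chromosome 9, and these intervals overlapped. Over all merged sites it was 25.5% on chromosome 5 and 24.6% on chromosome 9. On every chromosome except 9 the value of the 1228 sites was above that of all merged sites. The 1228 sites made up 0.884% to 1.13% of the merged sites of each chromosome.

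**Figure D4:**
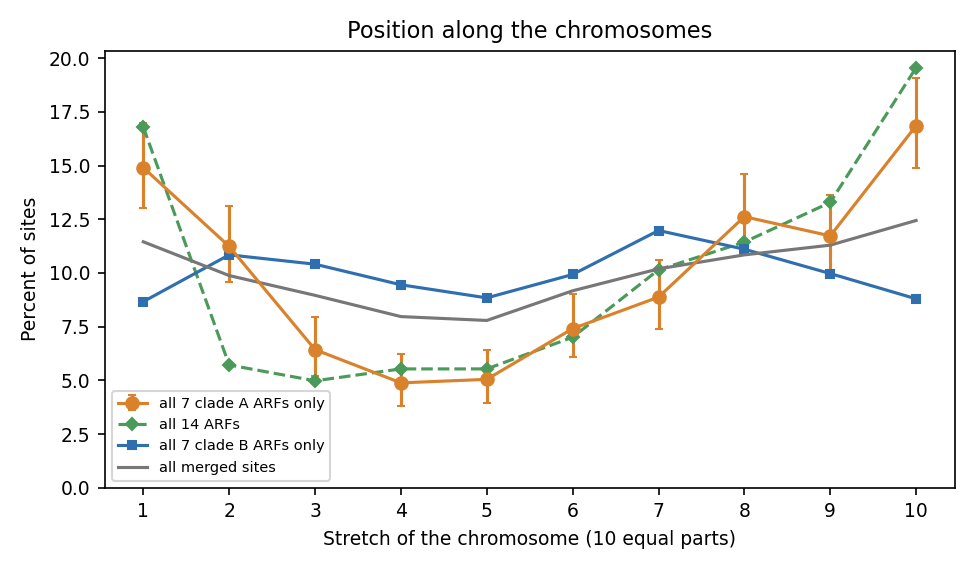
The horizontal axis divides each chromosome into 10 equal stretches and the vertical axis gives the percent of a set's sites in each, with 95% Wilson intervals for the 1228 sites. The 1228 sites of all 7 clade A ARFs only dip to 4.89% in the fourth stretch and reach 16.9% in the last, whereas sites of all 7 clade B ARFs only stay between 8.67% and 11.98%.

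Although no clade B peak overlapped them, clade B summits lay within 1 kb of some of the sites. The median distance from the centre of a site to the nearest clade B summit was 7037.5 bp (6208.5 to 7974), with quartiles of 2276 and 18133 bp. It was within 1 kb at 148 sites (12.1%, 10.3 to 13.99), against a background of 8.79% over all sites bound by clade A ARFs alone. The share was 9.99% at sites of 4 to 6 clade A ARFs only, a difference of 2.06 points (0.23 to 4.10), and 8.14% at sites of 1, a difference of 3.91 points (2.18 to 5.88). In the reverse direction, 4.66% of the sites of all 7 clade B ARFs only had a clade A summit within 1 kb. The 1228 sites exceeded this by 7.39 points (5.45 to 9.49).

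The clade B lists near the sites were led by the longest ones. ARF10 and ARF25 each had a summit within 1 kb of 102 sites, ARF7 of 66, ARF14 of 55, ARF36 of 45, ARF13 of 35 and ARF39 of 26. Shares by list were not computed for other sites bound by clade A ARFs alone. Whether any of these lists lay near the sites more often than near such other sites was thus not tested. The distance was also compared between the chromosome ends and the rest. The median was 5909.75 bp (4761.5 to 6829) for the 390 sites in the outer 20% and 7992.75 bp (6662.5 to 8968.5) for the 838 others, with intervals that overlapped. A clade B summit lay within 1 kb of 13.6% of the outer sites and 11.3% of the others, with overlapping intervals. With lists of equal length, 4.12% of the sites chosen again had a clade B summit within 1 kb, against 0.348% of the clade B sites with a clade A summit, a difference of 3.77 points (2.56 to 5.34).

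**Figure D5:**
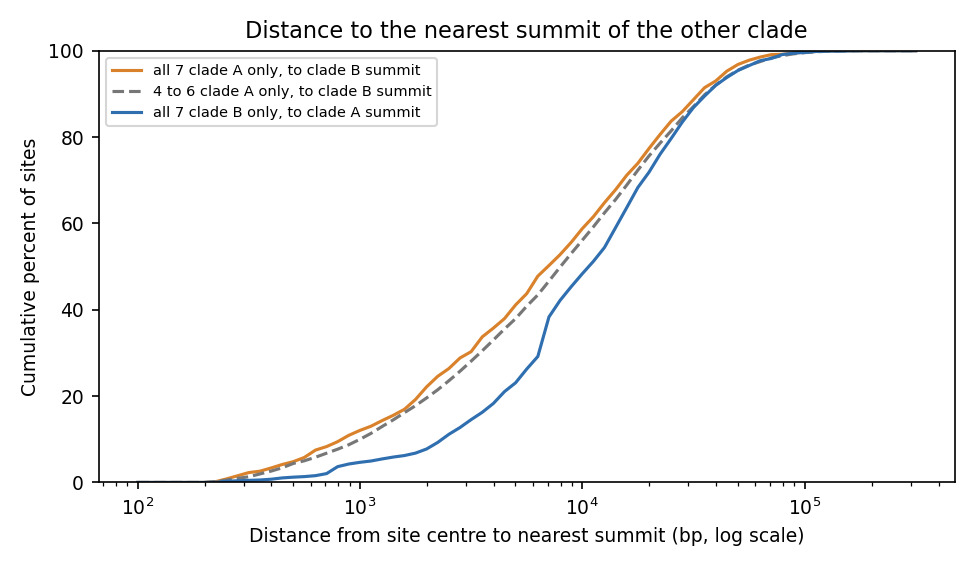
Cumulative percent of sites by the distance from the site centre to the nearest summit of the other clade, in bp on a log scale. The curve of the 1228 sites lies above that of the sites of 4 to 6 clade A ARFs only at 1 kb (12.1% against 9.99%) and well above that of the clade B sites (4.66%).

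Binding sites of other kinds were near the 1228 sites. The nearest merged site of any kind was a median of 2035.5 bp away, against 2423 bp for sites of all 14, 6851 bp for sites of all 7 clade B ARFs only and 4227 bp over all merged sites. Another of the 1228 was a median of 513063 bp away, a distance that the small size of the set itself makes long. In all, 44 sites (3.58%, 2.68 to 4.78) had another within 10 kb and 6 had one within 1 kb. Of the clade B sites, 24 (1.05%, 0.703 to 1.55) had another of their kind within 10 kb, although they were the larger set. The share was thus higher for the 1228 sites. Both sites of a close pair are counted, so partners are not independent and these intervals are too narrow.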

How the data were processed

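Peak lists of 14 ARF DAP-seq libraries, 1 per ARF, were used; the GST-HALO control entered only through the authors' peak calling, and its reads were not analysed here. Reads had been trimmed by the authors (trimmomatic) and aligned with bowtie2 2.2.8 against B73 RefGen version 3 without organelle genomes, and alignments of mapping quality above 30 were kept, which thins repeated sequence in every list. They called peaks for each library separately, without pooling, with GEM 2.5 (k-mers of 6 to 20 bases, false discovery limit 1e-05). The deposited signal is the read depth GEM assigned to a peak, unscaled between libraries. Per peak, the deposited files also give a p-value and a q-value as −log10, with q from 5 up to a ceiling of 999. Apart from the ARF34 and ARF27 libraries, the sources used here give sequencing depth only as a range over samples, and list length can move with depth. The deposited display score was not used. The authors' list of regions with peaks in all samples and the control was not applied, and whether the deposited lists still hold such regions was not checked.

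All 386300 peaks were merged at an overlap of at least 1 bp in Python 3.11.15 (numpy 2.4.6, pandas 2.3.3, scipy 1.17.1, matplotlib 3.10.9). bedtools 2.31.1 gave the same sites, with a difference of 0. A rank is the position of a site's strongest peak among all peaks of its list, from 0 to 100. Summit distances between pairs of lists use the same peak, whereas the register uses all clade A peaks of a site. Chromosome spans run to the last peak end. Shares have 95% Wilson intervals, differences of shares Newcombe intervals, and medians 95% order-statistic intervals. No test between ARFs was made. The scripts were checked on simulated lists. The sites, sets and lists were chosen with earlier results of these data known. Named sites are the 10 of highest mean rank, the 3 of lowest mean rank and the 3 with most peaks. The alternatives were a −log10 q of at least 10, merging at 100 bp, equal lists of 7520 peaks, ARF18-centred overlap, clade B exclusion zones, sites of 1 peak per list, and each list left out in turn. Motif content and gene neighbourhood were planned and not run, for want of a genome and annotation of this build.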

Additional observations from a re-analysis of the deposited data

How the results depend on the processing

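The number of sites depended most on the limit and on the short lists. It was 544 at a −log10 q of at least 10, 850 with lists of equal length, 1249 with merging at 100 bp, 1257 around ARF18 summits, 1120 without clade B peaks within 500 bp and 1058 within 1000 bp. Leaving out a clade A list gave 1232 to 1885, the highest without ARF18, and leaving out a clade B list gave 1228 to 1460. The sites themselves changed as well: 306 of the 544 (56.3%) and 340 of the 850 (40%) overlapped one of the 1228, which is 24.9% and 27.7% of these. With the −log10 q limit raised to 10, the median mean rank was 75.2, all 7 lists were in register at 31.8%, the median distance was 15919.5 bp to a clade B summit and 1164382 bp to another site of the set, and ARF10 made up 45.8% of single clade B ARFs. With lists of equal length the distances were 35844 and 638609 bp, 12.4% of near misses lacked ARF18, and ARF10 made up 36.3%. Sites of 1 peak per list were in register at 34.1% and 834196 bp apart. In the outer 40% of the chromosomes lay 54.7% of the 1228 sites, 38.3% of clade B sites and 45.1% of all sites. The cause of these changes was not tested, though fewer peaks by construction leave neighbours farther away. Of 77 alternative values 26 moved past their interval or by over 1.5 times. Comparisons of the sets under the alternatives, and the use of sites with 1 peak per list for position and distance and of exclusion zones for position, were added after seeing the data. Alternatives for motifs and genes were not run. No paired analysis was possible because each ARF had 1 library. Library depths, known for most lists only as a range over samples, limit what the absence of a peak shows.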
